A study of Mus musculus with 16 samples.

Results

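The effect of losing ARID1B alone was read in the livers of mice with floxed Arid1b alleles and the Alb-Cre transgene (ARID1B f/f, Alb-Cre+), set against livers of mice with the same floxed alleles and no Cre (ARID1B f/f, Alb-Cre-). The comparison used 8 of the series' 16 mRNA-seq libraries, 4 knockouts (tags F1, F3, F4 and F6) and 4 controls (F2, F5, F5-2 and F7), chosen by genotype in the labels and not by any measured value, and every gene that passed a filter on low counts was tested. The other 8 libraries were 4 livers with both Arid1a and Arid1b floxed and Alb-Cre (the double knockout, Alb-Cre+ on ARID1A f/f and ARID1B f/f) and 4 Cre-negative controls with the same floxed alleles, and they entered only the comparison of the knockouts. Alb-Cre is a recombinase driven by albumin regulatory sequence and acts mainly in hepatocytes. Which other cells of these livers, such as those of bile ducts, kept their Arid1b was not measured. Cre was present in all 4 knockouts and no control, so effects of the transgene and of the deletion cannot be told apart. The labels name no strain, age or feeding state. Xist counts were 41097 to 86791 per library and Y-linked counts were 0 in all 8, as in female mice.

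ARID1B is a large DNA-binding subunit of the canonical BAF (SWI/SNF) complex, which uses ATP to move and evict nucleosomes at enhancers and promoters. A BAF complex holds either ARID1B or its paralog ARID1A, and liver cells express both, so a complex with ARID1A can still form when ARID1B is lost. In adult liver most hepatocytes are out of the cell cycle and devote their transcription to plasma proteins, drug and bile acid metabolism and lipid synthesis.

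Total counts per library ran from 21151726 to 40551934. Levels are given as CPM, counts scaled to the TMM-corrected size of each library, as mean ± SD with n = 4 in either group, and with values of single libraries in the order F1, F3, F4 and F6 for the knockouts and F2, F5, F5-2 and F7 for the controls. Rn45s, the ribosomal RNA precursor, took 12.49% to 23.43% of the counts, with the highest share in F1. The first principal component of the log2 levels (24.19% of the variance) placed the 4 knockouts on one side and the 4 controls on the other, with control F5-2 farthest out. The tags F5 and F5-2 may name 1 animal, which the labels do not say. Their counts differed far beyond sampling noise (chi-square 73.26 per degree of freedom, against 34.74 to 137.7 for the other pairs within a group). This cannot settle whether they are 1 animal, because 2 samples of 1 liver could differ as well. Both were kept, and their sum was used as an alternative. Nothing in the labels says that every library came from a separate animal, so the p-values measure the spread between these libraries. For the tissue label, the 10 hepatocyte markers had group means of 698 (Hnf4a) to 81949 CPM (Alb), and 0 of the 10 passed the test, with log2 fold changes from -0.02 (Hnf4a) to 0.24 (Trf).

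Of 14061 genes tested, 82 (0.583%) passed an adjusted p of 0.05 in edgeR's quasi-likelihood test. Of these, 26 were higher (0.185% of the genes tested) and 56 lower (0.398%) in the knockout. With scaling by total counts alone the split was 22 higher and 86 lower. The higher genes included 10 of DNA replication and cell division, and the lower genes included enzymes and transporters of drugs, steroids and retinoids and the complement gene C9. At least a 2-fold change was seen in 14 of the higher and 24 of the lower genes. In all 82 genes the 4 knockout libraries did not overlap the 4 controls, a separation that 7.0% of all genes tested showed. At an unadjusted p under 0.05, 827 genes were higher (5.88%) and 809 lower (5.75%), and the median log2 fold change over all genes was 0.00. The number of calls moved with single libraries: it was 17 without F1, 29 without F6, 31 without F2, 40 without F3 and 51 without F7, while 14 genes were called in all 8 fits that left 1 library out. When the spread was estimated over all 16 libraries, 36 of the 82 stayed called.

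**Figure D1:**
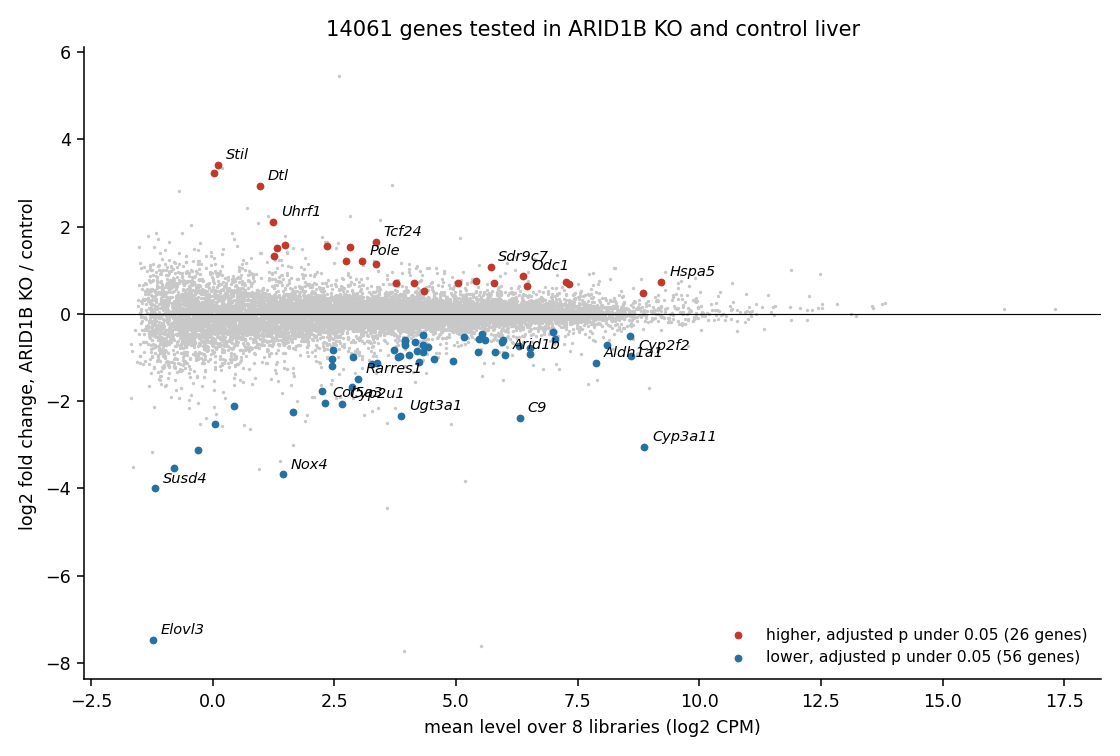
Each point is 1 of 14061 genes, placed by its mean level over the 8 libraries (log2 CPM, x axis) and its log2 fold change in ARID1B KO against control liver (y axis); coloured points passed an adjusted p of 0.05. The 26 higher genes reach 3.42 (Stil) and the 56 lower genes reach a fitted -7.47 (Elovl3, at 0 counts in all knockouts), and abundant genes among them include Cyp3a11 at -3.04 and Hspa5 at 0.73.

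**Figure D2:**
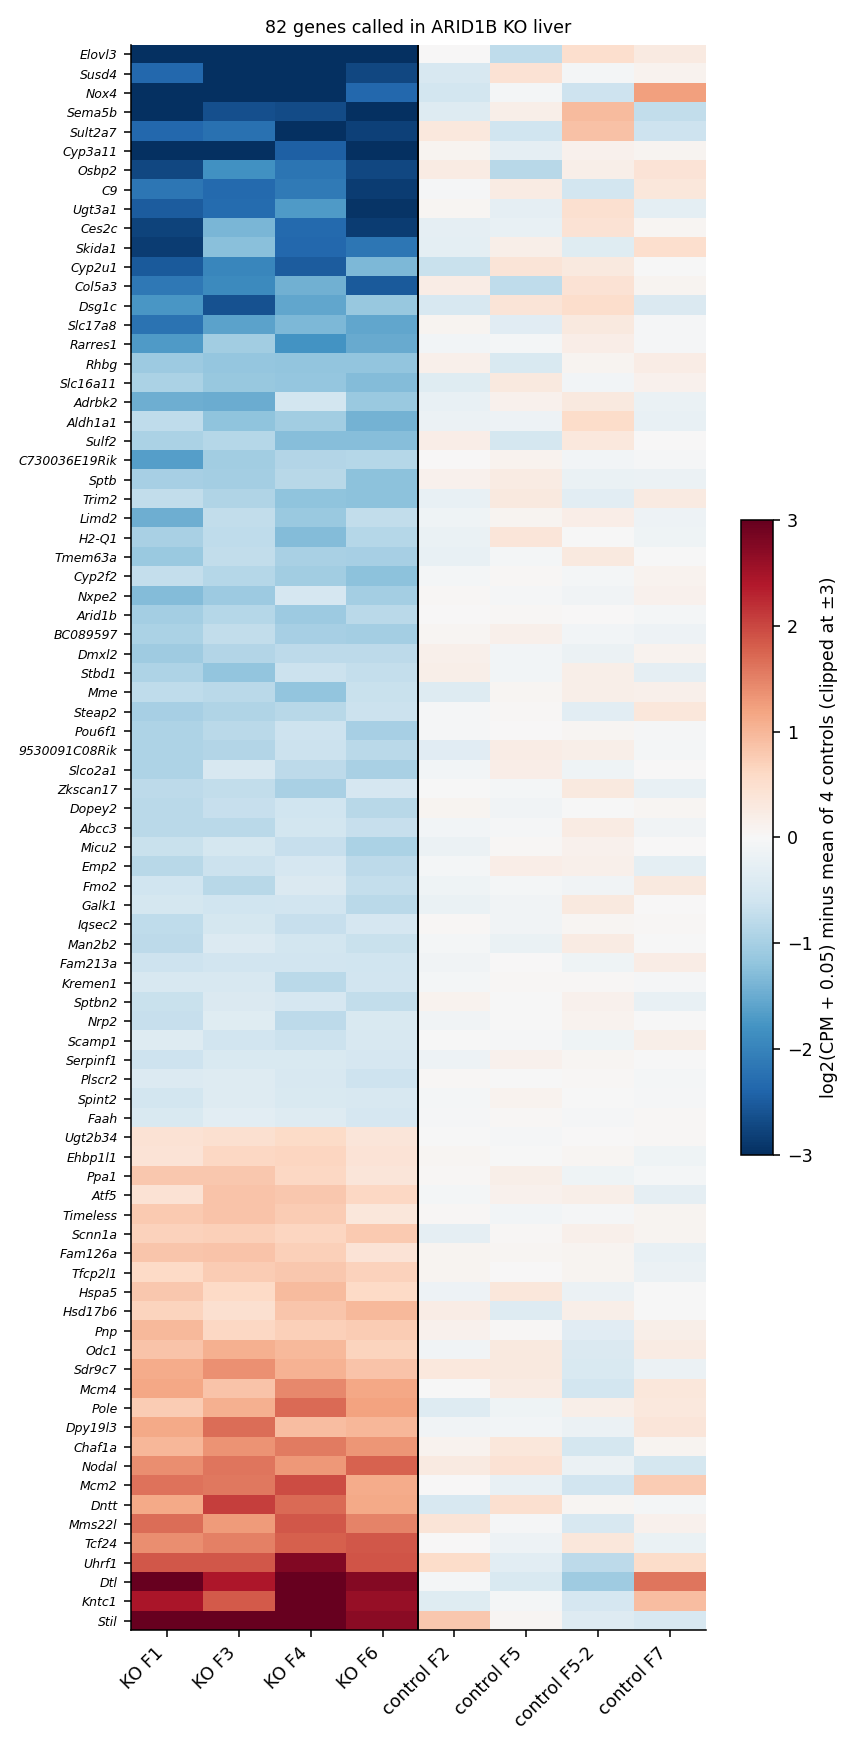
Each row is 1 of the 82 called genes and each column 1 library, coloured by log2(CPM + 0.05) minus the mean of the 4 controls and clipped at ±3. The 4 knockout columns hold the same sign in every row, with 56 rows below and 26 above the controls.

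Arid1b itself (chromosome 17, 4994332 to 5347656 on GRCm38) was at 41.7, 46.8, 40.1 and 48.4 CPM in the knockouts and 85.5, 86.4, 85.5 and 81.9 CPM in the controls. The groups did not overlap, and the knockout mean of 44.3 ± 3.98 against 84.8 ± 2.01 CPM was 1.92-fold lower (log2 fold change -0.94 with SE 0.09, adjusted p = 0.00154). The counts cover the whole gene in all liver cells and the labels do not say which exons were floxed, so this level measures neither the deleted exons nor the share of cells that carry the deletion. Arid1a, whose product takes the same place in the BAF complex, was at 128 ± 13.2 against 123 ± 8.38 CPM (log2 fold change 0.06 with SE 0.10, adjusted p = 0.883). Of 24 BAF subunit genes tested, Arid1b was the 1 that fell and 0 rose. The median log2 fold change of the list was 0.00. Among 25 Polycomb genes, which work against BAF on chromatin, 0 passed in edgeR's test or DESeq2, 1 was higher and 2 lower at an unadjusted p under 0.05, and Pcgf2 (-0.77, adjusted p = 0.27) and Bmi1 (0.29, adjusted p = 0.238) had the lowest p.

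Genes of DNA replication and cell division made up 10 of the 26 higher genes, a grouping made after the calls were seen. The gene lists used here and below were chosen with earlier results of these data known. Their shares against all genes are descriptions and not tests. Of 45 S phase genes tested, 5 rose (11.1%, against 0.185% of all genes) and 0 fell, and the median log2 fold change of the list was 0.61. Those 5 were Mcm2 and Mcm4, subunits of the replicative helicase, Pole, the catalytic subunit of the leading-strand DNA polymerase, Chaf1a, the large subunit of the chaperone that loads histones onto new DNA, and Uhrf1, which directs maintenance methylation behind the fork. Mcm2 was at 10.6, 10.3, 13.3 and 7.4 CPM in the knockouts and 3.47, 2.94, 2.27 and 5.86 CPM in the controls, a 2.86-fold higher mean (log2 fold change 1.53 with SE 0.28, adjusted p = 0.0377). Mcm4 was at 13.8, 11.3, 16.9 and 13.8 against 6.08, 7.29, 4.17 and 7.77 CPM (log2 fold change 1.14 with SE 0.20, adjusted p = 0.0257). For both genes the lowest knockout lay above the highest control, by the smallest margin between F6 and F7 for Mcm2. Pole was at 8.44, 10.3, 16.1 and 11.5 against 3.79, 4.51, 5.63 and 6.18 CPM (log2 fold change 1.21 with SE 0.22, adjusted p = 0.0309), and Chaf1a at 2.6, 3.37, 3.88 and 3.32 against 1.38, 1.65, 0.881 and 1.36 CPM (log2 fold change 1.33 with SE 0.26, adjusted p = 0.0429). Uhrf1 was at 2.99, 3.03, 5.74 and 3.06 CPM against 1.18, 0.627, 0.441 and 1.18 CPM in the controls, 4.33-fold higher (log2 fold change 2.11 with SE 0.36, adjusted p = 0.0257). Knockout F4 was the highest library for Mcm2, Mcm4, Pole, Chaf1a and Uhrf1, and the other 3 knockouts were still above every control.

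Another 16 S phase genes were higher at an unadjusted p under 0.05, so that 21 of 45 were higher at that level against 5.88% of all genes. The summed level of the list was 308, 276, 377 and 293 CPM in the knockouts and 227, 230.3, 224 and 259.6 CPM in the controls, without overlap. The number of members called was 0 when F1, F6 or F2 was left out and 5 without F7, while the number higher at an unadjusted p under 0.05 stayed between 17 and 22 over the 8 fits that each left 1 library out. With a 1.2-fold minimum or in the fit of all 16 libraries 0 members were called, and with DESeq2 10 were.

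Of 35 DNA repair and replication checkpoint genes, 2 rose and 0 fell, against 0.185% and 0.398% of all genes. Mms22l, which helps recombination at stalled forks, was at 4.36, 3.32, 4.95 and 3.85 against 1.76, 1.29, 0.949 and 1.45 CPM (log2 fold change 1.59 with SE 0.25, adjusted p = 0.0198). Timeless, a fork protection protein, was at 17.7, 18.7, 17.4 and 13.1 against 10.6, 9.72, 10.1 and 10.9 CPM (log2 fold change 0.70 with SE 0.13, adjusted p = 0.0353). For both genes every knockout lay above every control, with 3.02-fold and 1.62-fold higher means. The largest fold change among the higher genes was that of Stil, a centriole duplication factor, at 1.67, 2.25, 2.11 and 1.24 against 0.294, 0.157, 0.102 and 0.0909 CPM (11.3-fold, log2 fold change 3.42 with SE 0.44, adjusted p = 0.0068). Dtl, which targets the licensing factor Cdt1 for destruction, and Kntc1, a kinetochore checkpoint protein, lay below the level set for naming and were chosen after their values were seen. Dtl was at 4.66, 2.06, 4.24 and 2.58 against 0.323, 0.235, 0.136 and 1.14 CPM (log2 fold change 2.93 with SE 0.56, adjusted p = 0.0491), and Kntc1 at 1.13, 0.727, 3.6 and 1.27 against 0.118, 0.157, 0.102 and 0.363 CPM (log2 fold change 3.23 with SE 0.62, adjusted p = 0.0413). Stil, Dtl and Kntc1 rest on few counts in the controls, 19 for Stil, 46 for Dtl and 19 for Kntc1 over 4 libraries. Stil was called whichever library was left out, Mms22l lost its call without F1 or F6, Timeless was called in 1 of the 8 fits, that without F6, and Chaf1a lost its call in each of the 8 (adjusted p up to 0.119). Of the 10 genes together, 1 was called without F1, 2 without F6, 2 without F2, 3 without F5 and from 5 to 7 in the other 4 fits, with the direction kept in each.

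Of 37 genes of G2 and mitosis tested, 0 passed in edgeR's test and 1 by DESeq2, and the median log2 fold change was 0.25. At an unadjusted p under 0.05, 7 were higher and 0 lower, against 5.88% and 5.75% of all genes. Mki67, the gene of the Ki-67 proliferation antigen, was at 8.39, 12.1, 10.7 and 9.71 against 8.61, 6.66, 4.81 and 5.54 CPM (log2 fold change 0.67 with SE 0.19, adjusted p = 0.177). Top2a, the topoisomerase of mitotic chromosomes, was at 5.15, 3.63, 5.5 and 4.07 against 4.03, 1.37, 1.86 and 2.36 CPM (log2 fold change 0.92 with SE 0.31, adjusted p = 0.261). Both genes overlapped between the groups through control F2. The summed level of the list was 76, 73.7, 81.9 and 80.7 CPM in the knockouts and 75.5, 54.7, 50.3 and 61.1 CPM in the controls, so the groups overlapped, with control F2 above knockout F3.

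**Figure D3:**
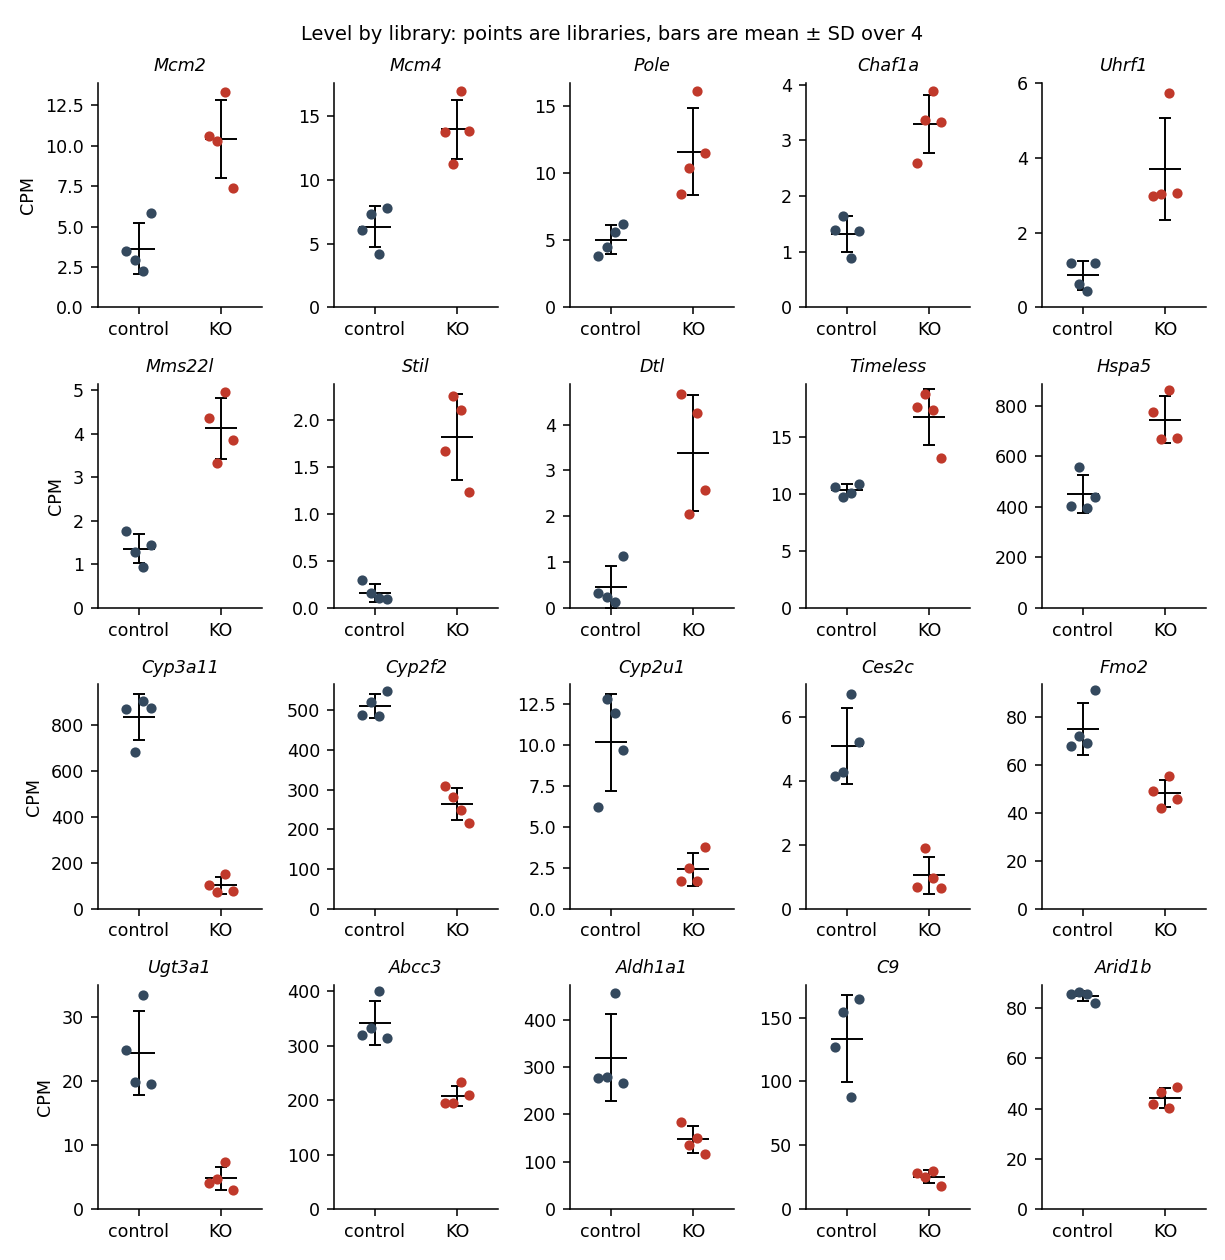
Each panel gives 1 gene's level (CPM, linear axis from 0) in the 4 control and 4 knockout libraries as points, with the mean ± SD. The 9 replication and division genes and Hspa5 in the upper rows are higher in every knockout, and the 10 genes in the lower rows, from Cyp3a11 at 72.0 to 151 against 685 to 906 CPM down to Arid1b, are lower in every knockout.

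S phase genes are textbook targets of E2F factors, and the promoters in the RefSeq table (GRCm38.p6, 250 bases before to 50 after each start) were searched on both strands for the letters TTTCCCGC, TTTCGCGC, TTTGCCGC and TTTGGCGC, forms of 1 E2F motif whose matches can overlap. A match was in 2.26% of 32851 promoters and in 4.40% of 10590 tested genes with a promoter in the table. Of the S phase genes 37 had a promoter there, and 15 of them (40.5%) held a match. Those 15 had a median log2 fold change of 0.89 with 10 higher at an unadjusted p under 0.05, and the 22 without a match a median of 0.46 with 8 higher. Of the 10 called replication and division genes 8 had a promoter in the table and 2 of these, Uhrf1 and Dtl, held a match. The table lists 2 promoters for Uhrf1, and the match is in the downstream one only. The stretches around the matches are shown for Uhrf1 and for the members with an unadjusted p under 0.05 whose match lay before the start and in no annotated exon (Mcm5, Mcm6 and Pola1, chosen for the match), 5′ to 3′ on the gene's strand, with the match in capitals.
Uhrf1 (chr17:56304114-56304149, plus strand): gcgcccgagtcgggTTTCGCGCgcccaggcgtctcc
Mcm5 (chr8:75109342-75109381, plus strand): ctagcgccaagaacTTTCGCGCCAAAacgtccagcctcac
Mcm6 (chr1:128359731-128359829, minus strand): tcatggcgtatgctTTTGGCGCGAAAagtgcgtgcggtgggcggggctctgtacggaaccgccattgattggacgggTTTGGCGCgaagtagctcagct
Pola1 (chrX:93632272-93632307, minus strand): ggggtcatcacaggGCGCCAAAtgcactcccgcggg
In Mcm5 and in the first match of Mcm6 the motif and its reverse complement overlap, so that the capitals run over both. The log2 fold changes of these genes were 2.11 for Uhrf1, 1.5 for Mcm5 (adjusted p = 0.202), 1.2 for Mcm6 (adjusted p = 0.263) and 0.61 for Pola1 (adjusted p = 0.0768). A match is a description of the letters and not a binding site.

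Hspa5 (BiP), the main chaperone of the endoplasmic reticulum (ER) and a regulator of the unfolded protein response, rose. It was at 776, 669, 862 and 671 CPM in the knockouts and 402, 559, 396 and 441 CPM in the controls. Its groups did not overlap, with control F5 nearest to the knockouts (1.66-fold, log2 fold change 0.73 with SE 0.13, adjusted p = 0.0315). Hspa5 was the 1 of 25 ER stress genes tested that rose, and 0 fell, against 0.185% and 0.398% of all genes. At an unadjusted p under 0.05, 14 of 25 were higher (against 5.88% of all genes) and 0 lower, DESeq2 called 7 higher, and the list's median log2 fold change was 0.52. The summed level was 5567, 5039.7, 6594 and 5539 CPM in the knockouts and 3895, 5018, 3876 and 4141 CPM in the controls, with F5 a little under the lowest knockout, F3. Without F5 the number of members called was 7, and without F1, F3, F6, F2 or F7 it was 0. The call of Hspa5 ended without F1 (adjusted p = 0.114), F3, F4, F6, F2 or F7. Atf5, a transcription factor of stress responses in ER and mitochondria, was at 196 ± 25.3 against 122 ± 17.1 CPM (log2 fold change 0.68 with SE 0.12, adjusted p = 0.0328), a gene outside the naming rule that was chosen after its values were seen. Atf5 lost its call in 7 of the 8 fits that left 1 library out, all but that without F5-2. In the fit of 16 libraries neither Hspa5 (adjusted p = 0.367) nor Atf5 (adjusted p = 0.325) passed.

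The ER stress element, the boxes CCAAT and CCACG with 9 free bases between them, was searched in the same promoters on both strands. It was in 0.119% of all promoters and in 7 of the 23 ER stress genes with a promoter in the table. All 7 were higher at an unadjusted p under 0.05, with a median log2 fold change of 0.44, and of the 16 without it 5 were higher, with a median of 0.51. For 5 of the 7 the sequence is shown to let the fixed boxes, in capitals, be read against the spacer, 5′ to 3′ on the gene's strand. Calr and Creld2 carry the element in reverse, and for Hspa5 only the element is shown because it lies in an exon of a longer transcript.
Hspa5 (chr2:34772023-34772045, plus strand): caCCAATcggaggcctCCACGac
Pdia6 (chr12:17266477-17266523, plus strand): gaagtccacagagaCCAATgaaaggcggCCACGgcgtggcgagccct
Dnajc3 (chr14:118937813-118937859, plus strand): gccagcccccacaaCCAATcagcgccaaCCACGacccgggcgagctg
Calr (chr8:84847061-84847107, minus strand): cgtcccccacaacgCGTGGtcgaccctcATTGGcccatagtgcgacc
Creld2 (chr15:88819506-88819552, plus strand): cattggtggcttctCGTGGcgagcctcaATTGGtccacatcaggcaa
Pdia6, a disulfide isomerase, was at 184, 154, 206 and 158 against 109, 152, 122 and 100.2 CPM (log2 fold change 0.54, adjusted p = 0.129). The log2 fold changes of the co-chaperone Dnajc3, of Calr (calreticulin) and of Creld2 were 0.43, 0.39 and 0.99, with adjusted p of 0.232, 0.257 and 0.291, so that none of the 4 passed.

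Cyp3a11 fell most among the called genes above 100 CPM in the controls. It encodes the main drug-metabolising cytochrome P450 of its subfamily in mouse liver (chromosome 5, 145854426 to 145879964). It was at 105, 72, 151 and 78.1 CPM in the knockouts and 871, 685, 906 and 874 CPM in the controls, so the highest knockout, F4, was far below the lowest control, F5. The mean was 8.22-fold lower, at 101 ± 35.8 against 834 ± 101 CPM (log2 fold change -3.04 with SE 0.24, adjusted p = 0.00154), and the call held whichever library was left out. Other members of the subfamily, chosen after their values were seen, did not pass. Cyp3a13 was at 215 ± 40.6 against 178 ± 8.02 CPM (log2 fold change 0.27, adjusted p = 0.427) and Cyp3a25 at 324 ± 139.7 against 284 ± 73 CPM (0.19, adjusted p = 0.875). The female-biased Cyp3a41a was lower in every knockout without passing, at 0.981, 13.3, 17.9 and 2.84 against 31.8, 30.4, 116 and 26.1 CPM (-2.52, adjusted p = 0.397). Cyp3a16, also female-biased, was at 0.589, 4.46, 13.2 and 0.424 against 33.5, 29.1, 202 and 8.63 CPM (-3.83, adjusted p = 0.383), where the groups overlapped through F4 and F7. These genes are close in sequence, and the labels do not say how reads shared between them were counted.

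Of 71 cytochrome P450 and other phase 1 enzymes, 5 fell (7.04%, against 0.398% of all genes) and 0 rose. Besides Cyp3a11 these were Cyp2f2, Cyp2u1, Ces2c and Fmo2. Cyp2f2, a P450 of periportal hepatocytes, was at 308, 280.2, 248 and 217 against 487, 521, 486 and 548 CPM (log2 fold change -0.96 with SE 0.11, adjusted p = 0.00392), and it kept its call in all 8 fits that left out a library but not in the fit of 16 libraries (adjusted p = 0.126). Cyp2u1, a fatty acid hydroxylase, was at 1.67, 2.47, 1.68 and 3.78 against 6.17, 12.8, 11.9 and 9.68 CPM (4.23-fold lower, log2 fold change -2.07 with SE 0.30, adjusted p = 0.0177). The carboxylesterase Ces2c was at 0.687, 1.89, 0.947 and 0.652 against 4.14, 4.27, 6.71 and 5.23 CPM (4.88-fold lower, log2 fold change -2.24 with SE 0.34, adjusted p = 0.0168). Its near neighbours in sequence, Ces2a (0.28, adjusted p = 0.381) and Ces2e (-0.34, adjusted p = 0.0789), did not pass. Fmo2, a flavin monooxygenase, was at 49.2, 42.1, 55.4 and 45.6 against 68, 71.9, 69.2 and 91.2 CPM (log2 fold change -0.64 with SE 0.12, adjusted p = 0.0342). Cyp2u1 lost its call without F1 (adjusted p = 0.0643) or F3, Ces2c without F1 (adjusted p = 0.06) or F6, and Fmo2 in 6 of the 8 fits, with every library left out except F4 and F5-2. At an unadjusted p under 0.05, 19 of the 71 were lower and 8 higher, against 5.75% and 5.88% of all genes. The median log2 fold change was -0.13.

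Of 49 conjugation enzymes in the list and tested, 1 rose and 1 fell, against 0.185% and 0.398% of all genes. Ugt3a1, a glycosyltransferase that acts on bile acids and drugs, was at 4.17, 4.77, 7.3 and 3.06 against 24.8, 19.8, 33.5 and 19.5 CPM (5.06-fold lower, log2 fold change -2.33 with SE 0.28, adjusted p = 0.0113). Its paralog Ugt3a2, chosen after its values were seen, was at 211 ± 13.3 against 249 ± 27.1 CPM (log2 fold change -0.24, adjusted p = 0.365). Ugt2b34, a glucuronosyltransferase, rose from 383, 376, 385 and 390.4 CPM in the controls to 521, 538, 575 and 491 CPM in the knockouts (log2 fold change 0.47 with SE 0.09, adjusted p = 0.033). The naming rule did not reach the sulfotransferases. Sult2a7, a conjugation enzyme that was not in the list, was lower, with 19 counts over the knockouts against 156 over the controls (log2 fold change -3.12 with SE 0.54, adjusted p = 0.0259). Sult1e1, the estrogen sulfotransferase and a member of the list, was at 2.11, 10.7, 6.38 and 27 CPM in the knockouts against 0.294, 0.353, 0.169 and 0.227 CPM in the controls without passing the test (log2 fold change 5.45, SE 0.91, adjusted p = 0.066). Ugt3a1 lost its call without F1 (adjusted p = 0.0533), Sult2a7 without F1, F3, F6, F2 or F5-2, and Ugt2b34 in 7 of the 8 fits, all but that without F5-2.

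Of 26 genes that the xenobiotic receptors CAR and PXR switch on, 2 fell and 0 rose, against 0.398% and 0.185% of all genes. The median log2 fold change was -0.02. At an unadjusted p under 0.05, 4 members were higher and 4 lower, against 5.88% and 5.75% of all genes. The pair that fell was Cyp3a11 and Abcc3, an export pump of conjugated bile acids and drugs, at 194, 195, 233 and 209 against 320.0, 332, 401 and 314 CPM (log2 fold change -0.72 with SE 0.11, adjusted p = 0.0149). Nr1i2, the gene of PXR, was at 67.9 ± 19.5 against 82.3 ± 15.5 CPM (log2 fold change -0.28, adjusted p = 0.704), and Nr1i3, the gene of CAR, at 108 ± 31.9 against 138 ± 40.7 CPM (-0.36, adjusted p = 0.675). Both receptor genes were chosen after their values were seen. Abcc3 lost its call without F1 (adjusted p = 0.0642) or F6.

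Aldh1a1, a retinaldehyde dehydrogenase, was lower, at 184, 136, 151 and 117 against 277, 279.7, 456 and 267 CPM (log2 fold change -1.12 with SE 0.20, adjusted p = 0.0415), with control F5-2 far above the other 3. Sdr9c7, a short-chain dehydrogenase of the retinol dehydrogenase family, was higher, at 70.9, 84.9, 67.6 and 59.8 against 41.1, 40.4, 23.9 and 29.3 CPM (log2 fold change 1.07 with SE 0.18, adjusted p = 0.0297). Hsd17b6, which oxidises androgens and retinol, was at 179.9, 158, 202 and 223 against 131, 86.8, 127 and 113 CPM (log2 fold change 0.73 with SE 0.14, adjusted p = 0.0429). Sdr9c7 (chromosome 10, 127898518 to 127911761) and Hsd17b6 (chromosome 10, 127990936 to 128007611) lie 79175 bases apart, the closest pair of called genes with a place in GENCODE M21. The next gene on the left, Rdh7, was at log2 fold change 0.14 (adjusted p = 0.668), and Prim1 on the right at 0.92 (adjusted p = 0.296). Timeless followed 224454 bases beyond Hsd17b6. Removing F1 ended the calls of Aldh1a1, Sdr9c7 and Hsd17b6, as did removing F4, F6 or F7 (adjusted p up to 0.131).

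Several called genes, brought together after the calls were seen, encode carriers or channels. Slc16a11, a monocarboxylate carrier, was at 6.82, 5.96, 5.86 and 5.28 against 10.3, 16.2, 12.4 and 14.5 CPM (log2 fold change -1.16 with SE 0.16, adjusted p = 0.0113). Slc17a8, the vesicular glutamate carrier VGLUT3, was at 2.3, 3.51, 4.21 and 3.65 against 11.4, 8.54, 13.2 and 10.5 CPM (3.2-fold lower, log2 fold change -1.67 with SE 0.20, adjusted p = 0.00392). Rhbg, an ammonia channel of pericentral hepatocytes, was at 3.43, 3.27, 3.21 and 3.23 CPM in the knockouts against 8.23, 5.37, 7.8 and 8.68 CPM (log2 fold change -1.2 with SE 0.18, adjusted p = 0.0177). Slco2a1, the prostaglandin carrier and outside the naming rule, was at 68 ± 11.1 against 117 ± 12 CPM (log2 fold change -0.78 with SE 0.12, adjusted p = 0.0186). Scnn1a, the alpha subunit of the epithelial sodium channel, was at 67.1, 68.2, 65.4 and 72.6 against 34.7, 42.6, 46.8 and 44.2 CPM (log2 fold change 0.70 with SE 0.10, adjusted p = 0.0133). Slc16a11 and Slc17a8 kept the call in all 8 fits, Scnn1a lost it without F1 (adjusted p = 0.0525), Slco2a1 without F1 or F6, and Rhbg without F1, F6 or F2 (adjusted p up to 0.0641).

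C9, the pore-forming last component of complement, fell 5.22-fold, from 127, 155, 88 and 165 CPM in the controls to 28.7, 25.6, 29.9 and 18.1 CPM in the knockouts (log2 fold change -2.39 with SE 0.23, adjusted p = 0.00392), and was called in all 8 fits, while the fit of 16 libraries ended the call (adjusted p = 0.316). It was the 1 gene to fall among 37 coagulation and complement genes, of which 0 rose, against 0.398% and 0.185% of all genes. Control F5-2 was the lowest control for C9 and stood far above the highest knockout, F4. Of the other terminal components only C8g is given, a gene chosen after its values were seen, at 78.5 ± 6.87 against 109 ± 22.4 CPM (log2 fold change -0.47, adjusted p = 0.173). Over the whole list of 37 the median log2 fold change was 0.07 with 22 members above 0. At an unadjusted p under 0.05, 3 of them were higher and 5 lower, against 5.88% and 5.75% of all genes. Susd4, a membrane inhibitor of complement, was near the limit of counting with 5 counts over the knockouts against 79 over the controls (log2 fold change -4.0 with SE 0.69, adjusted p = 0.0259), and it lost its call in 7 of the 8 fits, all but that without F5-2. Serpinf1 (PEDF), a secreted inhibitor of vessel growth outside the naming rule, was at 316 ± 17 against 449.9 ± 37.1 CPM (log2 fold change -0.51 with SE 0.09, adjusted p = 0.033), and lost its call without F1, F3, F6, F5 or F7.

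Elovl3, a fatty acid elongase, had 0 counts in all 4 knockouts and 0.705, 0.392, 1.02 and 0.863 CPM in the controls, 83 counts in all, which is at least 31-fold lower against a floor of 3 counts over the group (adjusted p = 0.0198). It was the 1 gene to fall among 29 genes of fatty acid and triglyceride synthesis, where 0 rose and the median log2 fold change was 0.33. The call of Elovl3 ended without F1, F6 or F2 (adjusted p up to 0.0633), and DESeq2 called 0 genes of this list, Elovl3 included. Of 26 genes of cholesterol synthesis and SREBP2 targets 0 passed in edgeR's test and 2 were called higher by DESeq2. In this list 25 had a log2 fold change above 0, and the median was 0.53. At an unadjusted p under 0.05, 10 were higher and 0 lower, against 5.88% and 5.75% of all genes. Idi1, an isoprenoid isomerase, was at 45, 114, 81.5 and 67.8 against 30.7, 47.7, 37.2 and 54.6 CPM (log2 fold change 0.86 with SE 0.30, adjusted p = 0.317). The summed level of the list was 6775, 9298, 7023 and 6035 CPM in the knockouts and 3803, 6166, 4262 and 5939.9 CPM in the controls, where F5 exceeded knockout F6. The number higher at an unadjusted p under 0.05 was 2 without F3 or F5-2, 3 without F2, 4 without F4 and 16 without F5, and it was 3 with scaling by total counts alone. Fabp1, the fatty acid binding protein of liver, was at 1074 ± 147 against 688 ± 141 CPM (log2 fold change 0.64 with SE 0.15, adjusted p = 0.0974). Vldlr, the VLDL receptor, was at 1.13, 1.28, 0.916 and 0.815 CPM in the knockouts and 12.6, 8.66, 59.9 and 9.18 CPM in the controls, separated but with F5-2 far above the rest (log2 fold change -4.44 with SE 0.84, adjusted p = 0.104).

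**Figure D4:**
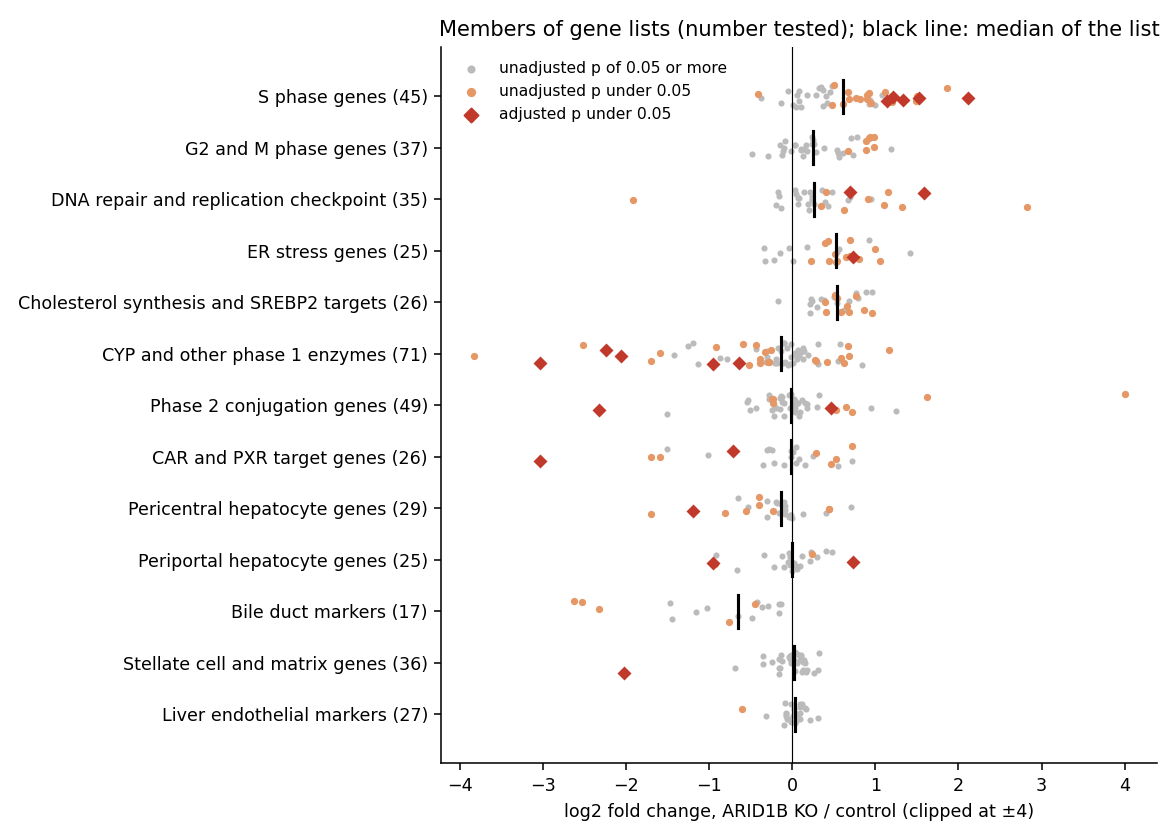
Each point is 1 tested member of a gene list, placed by its log2 fold change in ARID1B KO against control liver (x axis, clipped at ±4); diamonds passed an adjusted p of 0.05, orange points only an unadjusted p under 0.05, and the black line is the list's median. The S phase, ER stress and cholesterol lists lie to the right with medians of 0.61, 0.52 and 0.53, the bile duct list lies to the left at -0.66, and the phase 1 list spreads to both sides.

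Other genes that rose had varied roles. Tcf24, a basic helix-loop-helix factor, was at 12.8, 13.8, 17 and 17.7 against 4.91, 4.35, 6.1 and 4.23 CPM (3.13-fold higher, log2 fold change 1.65 with SE 0.16, adjusted p = 0.00154), and kept its call in all 8 fits. Nodal, a ligand of the TGF-beta family, was at 3.24, 3.78, 3.05 and 4.2 against 1.47, 1.65, 1.05 and 0.818 CPM (log2 fold change 1.51 with SE 0.27, adjusted p = 0.0282), and Dntt, a template-independent DNA polymerase of lymphocytes, at 5.49, 10.5, 8.21 and 5.51 against 1.76, 3.49, 2.58 and 2.36 CPM (log2 fold change 1.55 with SE 0.27, adjusted p = 0.0259). Odc1, the first enzyme of polyamine synthesis, was at 104, 121, 114 and 92.5 against 53.9, 70.4, 42.7 and 69.1 CPM (log2 fold change 0.87 with SE 0.15, adjusted p = 0.033). Pnp, a purine nucleoside phosphorylase, was at 53.3 ± 5.68 against 31.4 ± 4.71 CPM (log2 fold change 0.76 with SE 0.12, adjusted p = 0.0221), and Dpy19l3, a C-mannosyltransferase, at 9.21 ± 2.4 against 3.97 ± 0.723 CPM (log2 fold change 1.22 with SE 0.21, adjusted p = 0.0246). Chosen after their values were seen, the transcription factor Tfcp2l1 was at 21.8 ± 1.38 against 13.3 ± 1.15 CPM (adjusted p = 0.0154, called in all 8 fits) and Ppa1, a pyrophosphatase, at 108 ± 15.1 against 68.7 ± 6.18 CPM (adjusted p = 0.0259). Odc1, Pnp, Dntt and Ppa1 each lost the call without F1 or F2, with an adjusted p of at most 0.115 over these fits. Nodal was called only without F4 and F5, and Dpy19l3 without F4, F5-2 and F7.

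Other genes that fell were mixed in role. Rarres1, a retinoic acid responsive membrane protein, was at 3.53, 5.6, 3.3 and 4.04 against 10.9, 11.1, 13.3 and 11.3 CPM (log2 fold change -1.49 with SE 0.18, adjusted p = 0.00392). BC089597 was at 61.4, 71.7, 60.1 and 58.7 against 125, 133, 113 and 108 CPM (log2 fold change -0.92 with SE 0.10, adjusted p = 0.00257), Dmxl2, a regulator of the proton pump of vesicles, at 26.8, 30.5, 32.7 and 32.6 against 62.4, 53.3, 50.1 and 60.4 CPM (log2 fold change -0.88 with SE 0.10, adjusted p = 0.00392), and Dopey2 at 58.8 ± 4.55 against 97.6 ± 5.19 CPM (log2 fold change -0.73 with SE 0.09, adjusted p = 0.00392). These 4 genes kept their calls in all 8 fits, and Rarres1 lost it in the fit of 16 libraries (adjusted p = 0.168). Col5a3, a fibrillar collagen chain, was at 1.67, 1.96, 2.75 and 1.27 against 8.85, 4.43, 10.2 and 8.0 CPM (4.12-fold lower, log2 fold change -2.03 with SE 0.29, adjusted p = 0.0133), Sulf2, a heparan sulfatase that also stood in the list of p53 targets, at 12 ± 1.83 against 25.9 ± 6.19 CPM (log2 fold change -1.11 with SE 0.18, adjusted p = 0.0221), and Dsg1c, a desmoglein, at 2.14 ± 0.843 against 7.26 ± 2.6 CPM (log2 fold change -1.77 with SE 0.34, adjusted p = 0.0481). Nox4, an oxidase that makes hydrogen peroxide, was at 0.392, 0.145, 0.244 and 0.815 against 2.97, 4.15, 2.81 and 10.3 CPM (12.7-fold lower, log2 fold change -3.68 with SE 0.61, adjusted p = 0.0362), with control F7 above the other 3. Tmem63a, a mechanosensitive channel, was at 9.72 ± 1.04 against 19 ± 2.85 CPM (log2 fold change -0.96 with SE 0.13, adjusted p = 0.0113), and Adrbk2, a kinase of G protein-coupled receptors, at 6.46 ± 2.11 against 14.1 ± 2.45 CPM (log2 fold change -1.12 with SE 0.21, adjusted p = 0.0413). The calls of Col5a3 and Tmem63a ended only without F1, that of Sulf2 in 4 of the 8 fits, Nox4 in 5, Adrbk2 in 7 and Dsg1c in all 8, and the highest adjusted p over the 8 fits ran from 0.0512 (Tmem63a) to 0.175 (Dsg1c). The other 30 called genes, all outside the naming rule, lay between log2 fold changes of -3.54 (Sema5b) and 0.71 (Fam126a).

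Few genes of the zone, sex and clock programs of liver passed in edgeR's test. Of 29 pericentral genes, which hepatocytes near the central vein express, 1 fell (Rhbg) and 0 rose, and of 25 periportal genes 1 rose (Hsd17b6) and 1 fell (Cyp2f2). The medians were -0.13 and -0.01. At an unadjusted p under 0.05, 7 pericentral genes were lower and 2 higher, against 5.75% and 5.88% of all genes. Of the periportal genes 2 were lower and 2 higher at that level. DESeq2 called 4 pericentral genes lower and 2 higher, and 2 periportal genes lower and 1 higher. Of 23 male-biased genes 3 fell (Cyp2u1, Elovl3 and Susd4) and of 27 female-biased genes 1 fell (Fmo2), with 0 that rose in both lists, against 0.398% of all genes lower. The summed level of the male-biased list was higher in the knockouts, at 7120.5, 7960.5, 6711 and 7418 CPM against 5833, 5681, 2297 and 5129.8 CPM, without overlap. Most members did not follow the sum: the list's median log2 fold change was -0.13, with 9 of 23 members above 0. The median of the female-biased list was -0.59, and -0.08 without F5-2. At an unadjusted p under 0.05, 6 male-biased genes were lower and 2 higher, and 6 female-biased genes were lower and 2 higher. The shares over all genes were 5.75% lower and 5.88% higher. DESeq2 called 3 male-biased genes lower and 1 higher, and 4 female-biased genes lower and 1 higher. Cyp2d9, the member of the male-biased list with the highest log2 fold change, was chosen after its values were seen. It was higher in each knockout at 124, 74.9, 68.6 and 99.6 against 46.5, 50.1, 31.8 and 35.3 CPM without passing (log2 fold change 1.17, adjusted p = 0.0582). Of 7 circadian activators and night-phase genes and 12 circadian repressors and day-phase genes 0 passed in edgeR's test or DESeq2 and 1 was higher at an unadjusted p under 0.05, with log2 fold changes from -0.48 (Dbp) to 0.38 (Nfil3). Of 24 clock output genes of liver, 2 fell (Elovl3 and Fmo2, also in the sex-biased lists) and 0 rose, against 0.398% and 0.185% of all genes. The median of that list was 0.05, with 3 higher and 3 lower at an unadjusted p under 0.05, and DESeq2 called 1 each way. In 46 urea cycle and amino acid genes, 39 genes of fatty acid oxidation, 44 of the respiratory chain and 46 of cytosolic ribosomes 0 passed in edgeR's test, and their medians lay between -0.06 and 0.08. DESeq2 called 1 urea cycle and amino acid gene lower, and at an unadjusted p under 0.05 that list had 5 lower and the ribosomal list 4 higher. In the lists of acute phase (33), interferon-stimulated (43), immediate early (29), gluconeogenesis (23), YAP (19), Wnt (14), TGF-beta (37), iron (20), growth hormone (17) and apolipoprotein (29) genes 0 passed in edgeR's test as well. Each had 0 to 6 members higher and 1 to 5 lower at an unadjusted p under 0.05. DESeq2 called 1 acute phase gene each way. It called 1 gene higher in each of the gluconeogenesis and apolipoprotein lists and 1 lower in each of the interferon, immediate early, TGF-beta and iron lists. It called 0 in the YAP, Wnt and growth hormone lists. Of 26 NRF2 targets and of 26 bile acid genes 1 fell in each list, against 0.398% of all genes. It was Abcc3 in both, the gene also given among the CAR and PXR targets. Among 27 hepatocyte identity factors 0 passed in edgeR's test. DESeq2 called 2 higher and 1 lower. At an unadjusted p under 0.05, 3 were higher and 2 lower, with Nr1h3 and Foxa3 at the lowest p, 0.42 (adjusted p = 0.0768) and -0.69 (adjusted p = 0.107). Among 19 fetal and oncofetal genes 0 passed in edgeR's test or DESeq2, 2 were higher at an unadjusted p under 0.05, and Afp was at 7.38 ± 2.66 against 4.96 ± 0.428 CPM (log2 fold change 0.57 with SE 0.23, adjusted p = 0.359).

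Markers of the other liver cells were read for the whole lists, and fewer cells of a type cannot be told apart from less RNA per cell in these bulk samples. Of 17 bile duct markers tested 0 passed in edgeR's test. DESeq2 called 2 lower. All 17 had a log2 fold change below 0, 5 were lower at an unadjusted p under 0.05 (against 5.75% of all genes), and the median was -0.66. Prom1, a membrane glycoprotein of duct and progenitor cells, was at 1.86, 0.824, 2.05 and 0.391 against 7.64, 4.11, 10.6 and 2.73 CPM (log2 fold change -2.32 with SE 0.58, adjusted p = 0.16). The summed level of the duct markers, 132, 106, 173 and 96.1 CPM against 162, 187, 173 and 128 CPM, overlapped between the groups. The number lower at an unadjusted p under 0.05 was 2 without F3, 3 without F1 or F2, and 8 without F4 or F5-2. Of 36 stellate cell and matrix genes 1 fell (Col5a3), and of 27 endothelial, 18 Kupffer cell, 12 recruited macrophage, 17 T and NK cell, 9 B cell, 5 neutrophil and 5 erythroid markers 0 passed in edgeR's test. At an unadjusted p under 0.05, each list had 0 to 2 lower and 0 higher. The erythroid list had 2 of 5 lower, against 5.75% of all genes, with a median of -0.63 and 0 members above 0. Its summed level overlapped between the groups, at 13.6 to 21.4 CPM in the knockouts and 20.3 to 38.3 CPM in the controls. DESeq2 called 1 erythroid marker lower and 0 in the other 6 of these lists. Marco, a scavenger receptor of macrophages, was at 75.1 CPM in knockout F4 and at 2.52 to 8.04 CPM in the other 3 knockouts (log2 fold change 2.96 with SE 1.26, adjusted p = 0.445). The summed Kupffer cell markers reached 1093 CPM in F4 against 550.0 to 686 CPM in the controls, and the part of these cells in F4's high S phase levels was not tested. Without F4 the S phase list held 17 genes higher at an unadjusted p under 0.05 and 3 called.

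The called genes were spread over the genome. Chromosome 17, which carries Arid1b, held 4 called of 664 tested genes (0.602%), close to the share over all genes, and chromosome 10 held 6 of 656 (0.915%). On chromosome 17 Chaf1a and Uhrf1 lie 231032 bases apart. Of the called genes 78 of 82 matched GENCODE M21 by symbol, 30 of these overlap another annotated gene and 27 have one on the opposite strand. Among genes named here Arid1b, Tcf24, Cyp2f2, Tmem63a, Col5a3, Cyp2u1, Rhbg, Elovl3, Pole, Timeless, Aldh1a1, Chaf1a, Atf5, Tfcp2l1, Slco2a1, Pnp, Sulf2, Odc1, Sema5b and Fam126a overlap another gene, and without a stated strand setting of the counting some of these counts may be the partner's.

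The effect of ARID1B loss was then set beside that of losing ARID1A and ARID1B together, each against its own controls, which the comparisons do not share. In a fit of all 16 libraries the double knockout changed 5350 of 14050 genes (38.1%), 2651 higher (18.9%) and 2699 lower (19.2%). Of the 26 genes higher in the ARID1B knockout, 17 (65.4%) were also higher in the double knockout and 2 lower. Of the 56 lower genes, 37 (66.1%) were also lower and 1 higher. The other 25 did not pass in the double knockout. The difference of the knockout effects itself passed for 27 of the 82 genes, against 3162 of all genes (22.5%), and in 13 of the 27 the double knockout moved the gene further in the same direction. The 82 genes were selected on the ARID1B effect that enters this difference, so their share cannot be compared with that of all genes as like with like.

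**Figure D5:**
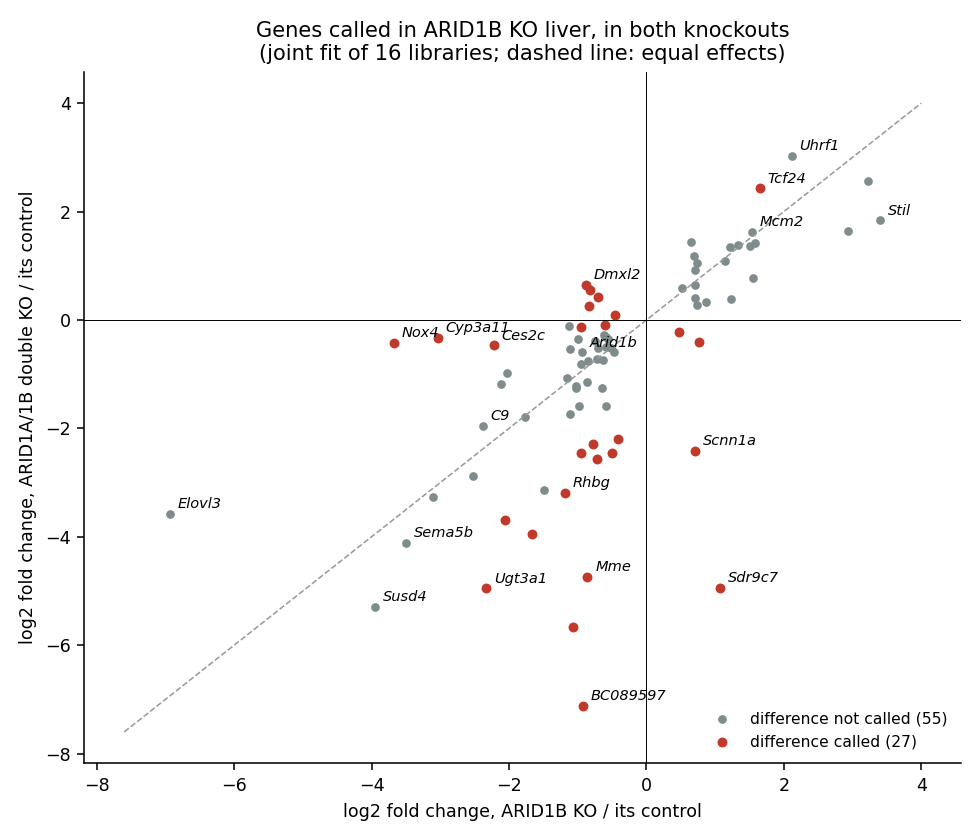
Each point is 1 of the 82 called genes, placed by its log2 fold change in the ARID1B knockout (x axis) and in the double knockout (y axis), each against its own controls in the fit of 16 libraries; red points are the 27 whose difference passed an adjusted p of 0.05 and the dashed line marks equal effects. Mcm2 lies near the line, Uhrf1 above it and Stil below it, Cyp3a11 and Nox4 lie near 0 for the double knockout, and Sdr9c7 and Scnn1a lie above 0 in one knockout and below 0 in the other.

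Of the 10 called replication and division genes, 9 were also higher in the double knockout, all but Timeless (0.40, adjusted p = 0.067), and the difference of the effects passed for 0 of the 10. In the double knockout Mcm2 had a log2 fold change of 1.62, which differed by 0.09 from the ARID1B knockout (SE 0.50, adjusted p = 0.921). The differences were -0.06 (SE 0.35) for Mcm4, 0.14 (0.46) for Pole, 0.05 (0.48) for Chaf1a, -0.16 (0.37) for Mms22l and -0.30 (0.23) for Timeless. They were wider for Uhrf1 (0.91, SE 0.64), Kntc1 (-0.65, SE 0.79), Dtl (-1.30, SE 0.78) and Stil (-1.57, SE 0.63, adjusted p = 0.0819). With SEs of this size the fit does not show that the effects are alike. Over the S phase list the medians were 0.61 in the ARID1B knockout and 0.87 in the double knockout, and the difference passed for 2 of 45 genes. The G2 and M phase list was apart: 40 of 42 members were higher in the double knockout, with a median of 2.32, and the difference passed for 25 of 42, against 22.5% of all genes. Marker lists of other cells moved there too. Of 17 recruited macrophage markers 17 were higher. Of 38 stellate cell and matrix genes 30 were higher and 4 lower, and of 27 endothelial markers 2 were higher and 10 lower. The part of such cells in the G2 and M phase levels was not tested. The ER stress list had 3 of 27 members higher and 1 lower in the double knockout, against 18.9% and 19.2% of all genes, with a median of 0.15 and a difference that passed for 3. For Hspa5 the difference was -0.46 (SE 0.40, adjusted p = 0.449).

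Cyp3a11 fell with ARID1B loss and did not pass in the double knockout. It was at 1232 ± 502 CPM in the double knockout against 1542 ± 313 CPM in its controls (log2 fold change -0.32, SE 0.26, adjusted p = 0.344), against -3.04 in the ARID1B knockout, and the difference of 2.71 passed (SE 0.37, adjusted p = 8.15e-05). Nox4 (-0.42 in the double knockout, difference 3.25, adjusted p = 0.0126), Ces2c (-0.47, difference 1.76, adjusted p = 0.00397) and Tmem63a (-0.12, difference 0.84, adjusted p = 0.00451) likewise did not pass in the double knockout. In 3 genes called in the fit of 8 libraries the double knockout passed in the opposite direction: Sdr9c7 at 1.08 and -4.94 (difference -6.02, adjusted p = 2.94e-07), Scnn1a at 0.70 and -2.41 (-3.11, adjusted p = 1.22e-05), and Dmxl2 at -0.88 and 0.64 (1.52, adjusted p = 1.28e-05). In the fit of 16 libraries the ARID1B effect itself passed for Dmxl2 (adjusted p = 0.00225) and not for Sdr9c7 (0.094) or Scnn1a (0.242). Hsd17b6, the neighbour of Sdr9c7, was higher in both, at 0.74 and 1.06 (difference 0.32, adjusted p = 0.541).

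In other genes the fall was larger in the double knockout. The 2 knockouts are separate experiments with separate controls, so ARID1A loss and the experiment cannot be told apart in these differences. Arid1b itself was at -0.93 in the ARID1B knockout and -0.60 in the double knockout (difference 0.33, SE 0.18, adjusted p = 0.209). BC089597 went from -0.92 to -7.13 (difference -6.21, adjusted p = 1.44e-11), Ugt3a1 from -2.33 to -4.95 (-2.62, adjusted p = 0.000801), Slc17a8 from -1.66 to -3.95 (-2.29, adjusted p = 0.000725), Rhbg from -1.19 to -3.19 (-2.00, adjusted p = 0.000252) and Abcc3 from -0.71 to -2.57 (-1.86, adjusted p = 5.44e-05). Tcf24 rose further, from 1.65 to 2.43 (0.78, adjusted p = 0.018). C9 was at -1.95 in the double knockout without passing (SE 0.81, adjusted p = 0.075), and its difference of 0.43 did not pass (SE 1.11, adjusted p = 0.827). The bile duct markers lay below 0 in the ARID1B knockout and 10 of 18 were higher in the double knockout (against 18.9% of all genes), with medians of -0.66 and 1.85 and a difference that passed for 9 (against 22.5%). The phase 1 list had 49 of 71 members lower in the double knockout (against 19.2% of all genes) and 5 in the ARID1B knockout, and the difference passed for 45 (against 22.5%).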

How the data were processed

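Liver total RNA was isolated with TRIzol and RNeasy columns and made into libraries with the Ovation system of NuGEN, as the labels' protocols state. What the authors deposited are raw counts per gene, in 1 table per experiment, made by the authors with HISAT2 2.1.0, featureCounts 1.6.2 and Trim Galore 0.4.1, per the submitters' processing notes. They name mouse builds GRCm38 and mm10 beside the human GRCh38, with no role for any. Strand setting, annotation and treatment of shared reads: not given in the sources used here.

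Groups follow the labelled genotype. The Arid1b table held 24421 rows, 0 columns without a sample and 27 gene names turned into dates, which stayed in the test of 8 libraries, were dropped from the fit of 16 and are not named. The test of the counts was that of edgeR 4.0.16 in R 4.3.3 (filterByExpr, TMM scaling, robust quasi-likelihood F-test), after the steps had been tested on simulated data. A call is an adjusted p (Benjamini-Hochberg, over all genes tested) under 0.05. Standard errors are the absolute log2 fold change over the square root of F. Folds are ratios of mean CPM, with a floor of 3 counts over the group where a group had 0 counts. DESeq2 1.42.0 and limma 3.58.1 were alternatives. The difference of the knockout effects was tested in 1 fit of all 16 libraries.

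The members and the 50 gene lists were chosen with earlier results of these data known, and the lists get no test of their own. Genes were named by a rule: Arid1b and Arid1a, the 15 higher and 15 lower called genes with the largest change among those whose mean log2 CPM reached 1 with no overlap of the groups, the 15 with the lowest adjusted p, and up to 4 called members of each list, or 2 where none was called, the latter named only where a result turned on them. Clock genes are given by their extremes, and a few genes are not reported here. Other names were chosen after their values were seen. Genes named for their promoter motif or for a paralog are among these. Positions are from GENCODE M21 and RefSeq on GRCm38. Counting error is small for abundant genes and limits those with few counts.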

Additional observations from a re-analysis of the deposited data

Results flagged for a closer look

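Of the 196 groups of 4 libraries checked for the genes in the text, 14 held 1 library whose gap to the nearest other exceeded Dixon's critical share of the group's range (at the 95% level for 4 values); chance gives about 1 in 20 groups. Among the controls, F5-2 was the far library for Rarres1 (13.3 CPM, others 10.9 to 11.3), Aldh1a1 (456 CPM, others 267 to 279.7), Vldlr (59.9 CPM, others 8.66 to 12.6), Cyp3a16 (202 CPM, others 8.63 to 33.5) and Cyp3a41a (116 CPM, others 26.1 to 31.8). F7 was the far control for Fam126a (21.4 CPM, others 26.1 to 26.5), Dpy19l3 (5.04 CPM, others 3.49 to 3.68) and Fmo2 (91.2 CPM, others 68.0 to 71.9). F5 was the far control for Cyp3a11 (685 CPM, others 871 to 906) and Calr (609 CPM, others 409 to 437). In the knockouts, F4 was the far library for Uhrf1 (5.74 CPM, others 2.99 to 3.06), Calr (694 CPM, others 585 to 602) and Marco (75.1 CPM, others 2.52 to 8.04), and F6 for Hnf4a (848 CPM, others 629 to 659). The calls of Cyp3a11 and Rarres1 held when the far library was left out, that of Uhrf1 held without F4 and that of Dpy19l3 without F7, and those of Fmo2 and Fam126a did not hold without F7. Aldh1a1 kept its call without F5-2.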

How the results depend on the processing

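All 82 called genes kept their direction under each alternative that tested them, and 9 were called under all of them. The count of 82 (26 higher, 56 lower) became 356 (153 higher, 203 lower) with DESeq2, 23 (3 higher, 20 lower) with a 1.2-fold minimum and 50 (13 higher, 37 lower) when the spread was estimated over all 16 libraries. The cause of these shifts was not tested. Leaving out 1 library gave from 17 to 104 calls, from 4 to 33 higher and from 13 to 73 lower. The lowest counts came without F1 (17), F6 (29), F2 (31) and F3 (40). Scaling by total counts alone gave 108 calls, 22 higher and 86 lower, so 79.6% were lower against 68.3%, and it moved the median of all genes to -0.07 on the log2 scale. No filter on low counts gave 113 calls, F5 and F5-2 summed into 1 control gave 104, which kept 67 of the 82, limma voom 75, and size factors, a stricter filter, no robust option, removal of the 20 most abundant genes or removal of Rn45s (chosen after seeing the data) from 78 to 84. For genes that were not called, Arid1a turned to -0.0095 with scaling by total counts, and with 1 library left out Cyp3a25 ran from -0.13 (without F6) to 0.39 and Hnf4a from -0.13 to 0.089 (above 0 without F1, F3, F4 or F5-2). No paired analysis was possible because the tags are not shared between the groups. Depth limits genes such as Elovl3, Susd4, Stil and Kntc1, which rest on few counts in 1 group.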
